A study of Mus musculus with 15 samples.

Results

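The genes described here are 9 enzymes of the hepatic methionine cycle and of the reactions that feed it or draw on it, namely Mat1a, Ahcy, Bhmt, Gnmt, Pemt, Nnmt, Sardh, Cbs and Cth. They were chosen by gene symbol from a table of 15302 genes, and all 9 were present and passed the filter on low counts. The table holds gene counts of 15 libraries from livers of wild-type (WT) mice, in 3 groups of 5. From 8 weeks of age every mouse ate a MASH diet, a feed used to bring on metabolic dysfunction-associated steatohepatitis. The mice were housed near 29 °C. Mice of the GDF15 group were injected subcutaneously each morning with recombinant GDF15, a circulating hormone that acts on a brainstem receptor to curb eating, at 1 nmol/kg. PairFed mice were given the quantity of food that the GDF15 mice had eaten on the previous day, and Vehicle mice are the controls. Groups were formed at random, balanced for weight and body composition, and the mice lived singly. The labels do not say the sex or strain, how long treatment lasted, or how long after the last injection or meal the livers were taken. Set against Vehicle, GDF15 includes any effect of eating less, and PairFed carries the reduced ration without the protein. GDF15 against PairFed compares the protein with the amount of food matched, which says nothing of when it was eaten.

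The methionine cycle turns methionine into S-adenosylmethionine (SAM), the methyl donor of most cellular methylation reactions, and the liver is its main site. Each methyl transfer leaves S-adenosylhomocysteine, which is split into adenosine and homocysteine, and homocysteine either takes up a new methyl group to become methionine again or is drawn off to make cysteine. Glycine serves in liver as a sink for surplus methyl groups, and the product, sarcosine, hands its carbon to the folate pool.

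Library totals ran from 8551557 to 10914914 counts in GDF15, 10133289 to 12933324 in PairFed and 9228127 to 12994187 in Vehicle libraries. The largest gap in depth, between 10914914 and 12137462, put 4 of 5 PairFed libraries and 1 of 5 Vehicle libraries on the deeper side and no GDF15 library. Levels are given as CPM, the usual depth-scaled count unit, with library sizes scaled by TMM (trimmed mean of M-values). Differences are log2 fold changes with a standard error (SE) from edgeR's two-sided quasi-likelihood test in 1 model of the 15 libraries, and a gene is said to have risen or fallen at an adjusted p below 0.05 over 12274 tested genes. The labels number the libraries but do not say that each is a separate animal, so the p-values measure the spread between these libraries. Hepatocyte markers were abundant in all libraries, with a mean of 75630 CPM for Alb (albumin).

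In livers of GDF15-treated mice 4 of the 9 genes, Ahcy, Cth, Gnmt and Mat1a, rose relative to Vehicle and none fell. Gnmt averaged 1219 ± 275 CPM in GDF15 and 746 ± 115 CPM in Vehicle livers, and Ahcy averaged 1508 ± 189.9 CPM in GDF15 and 990.5 ± 112 CPM in Vehicle livers (SD, n = 5 each). Of all tested genes 2.90% were called in this comparison, 2.02% higher and 0.880% lower, which is 248 higher and 108 lower genes, or 196 and 138 with upper-quartile scaling. The estimate was above 0 for 8 of 9 genes, with a median log2 fold change of 0.44 against -0.0046 over all tested genes. At an unadjusted p below 0.05 stood 8 of 9 genes, against 16.7% of all genes. DESeq2 called 7 of 9 (5.23% of all genes) and limma-voom 4 of 9 (2.53%). GDF15 and Vehicle libraries did not overlap for Ahcy, Nnmt and Pemt, 3 of 9 genes, where 3.99% of all tested genes did not overlap.

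**Figure D1:**
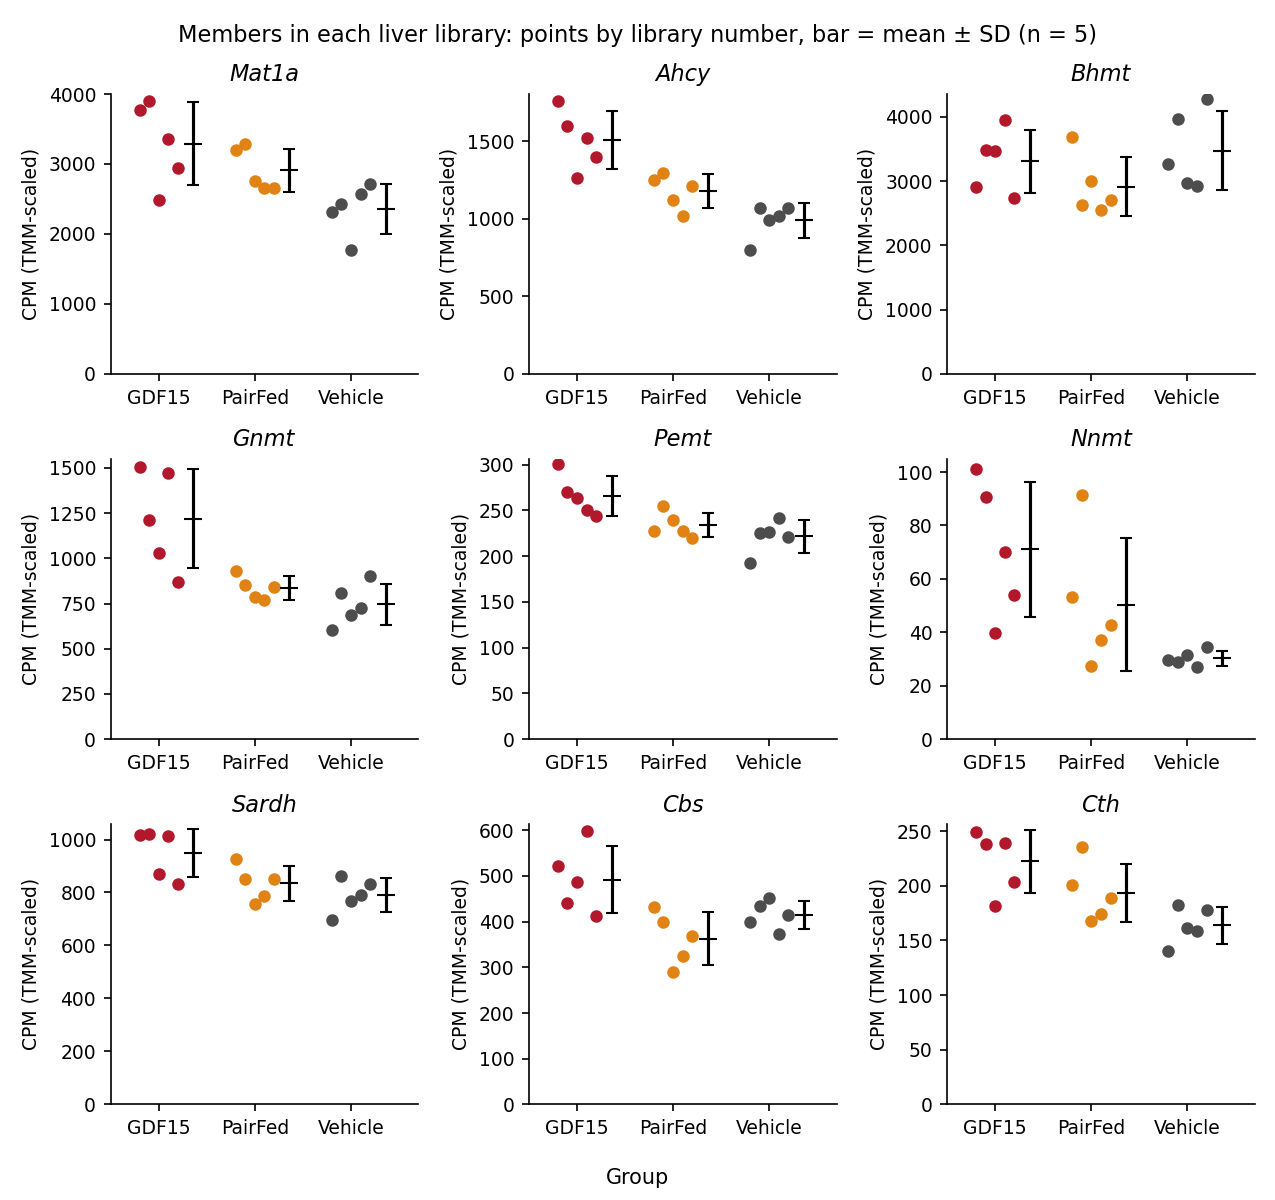
TMM-scaled CPM (y axis, starting at 0) of the 9 genes in each of the 5 GDF15, 5 PairFed and 5 Vehicle libraries, with points in order of library number and the bar giving the mean ± SD. All GDF15 points lie above all Vehicle points for Ahcy, Pemt and Nnmt, while the groups overlap for the other genes, most of all for Bhmt.

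Genes that mark handling or other cell types were followed in the same libraries. Immediate-early genes respond within minutes to handling and stress, and many, such as those of the Fos and Egr type, encode transcription factors. The 22 listed summed to 682 to 2284 CPM in GDF15, 755 to 1418 CPM in PairFed and 495 to 943 CPM in Vehicle libraries. None of the 21 that could be tested was called (edgeR, 14 at an unadjusted p below 0.05), and their median log2 fold change between GDF15 and Vehicle was 0.84. With the mean of these genes as a covariate no member was called, and calls over all tested genes in GDF15 vs Vehicle went from 356 to 9. The estimates against Vehicle were then 0.38 for Ahcy (adjusted p = 0.208), 0.48 for Gnmt (adjusted p = 0.431), 0.22 for Cth (adjusted p = 0.8) and 0.17 for Mat1a (adjusted p = 0.927). The 11 hepatocyte markers in the table summed to 105515 to 135825 CPM in GDF15, 100817 to 124374 CPM in PairFed and 91749 to 114782 CPM in Vehicle libraries, with a median log2 fold change of 0.22 and 2 of 11 risen between GDF15 and Vehicle, namely the urea cycle gene Cps1 and the tyrosine-degrading Hpd. Estimates in GDF15 against Vehicle were below 0 for 10 of 10 monocyte and macrophage and 8 of 8 stellate cell and fibroblast markers. They were below 0 also for 4 of 4 tested B cell and 3 of 4 tested T and NK cell markers. Among these lists Ly6c2 and Cd8a fell, as did Apcs and Orm2 of 9 acute-phase genes. Ly6c2 and Cd8a were low, with means of 1.02 and 0.990 CPM over the 15 libraries. Above 0 were 6 of 8 Kupffer cell (median 0.21), 4 of 8 sinusoidal endothelial and 1 of 7 bile duct markers, none called. Over all 12274 tested genes 5997 were above 0. The 5 B cell markers summed to 4.90 to 8.83 CPM in GDF15 libraries. They summed to 103 CPM in Vehicle 4 and to 3.86 to 9.95 CPM in the other Vehicle libraries. Monocyte and macrophage markers summed to 329 to 589 CPM in GDF15, 398 to 576 CPM in PairFed and 430 to 889 CPM in Vehicle libraries, and the 8 T and NK cell markers to 3.73 to 5.51, 2.84 to 5.78 and 4.82 to 10.2 CPM in GDF15, PairFed and Vehicle libraries. Spp1, at a mean of 225 CPM, is on both the monocyte and macrophage list and the bile duct list. In PairFed against Vehicle, 8 of 8 sinusoidal endothelial markers were above 0 with none called, and the bile duct marker Sox9 fell. No listed marker in the table was at 0 in total. The immediate-early mean followed the group in part, at 3.80 to 5.06 log2 CPM in GDF15 and 3.56 to 4.26 in Vehicle libraries. The fit with that covariate therefore cannot separate these genes from the treatment. The part of the markers in the results was not tested. In whole liver, fewer cells of a type and less RNA per cell cannot be told apart.

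Mat1a, Ahcy and Bhmt run the cycle itself. Mat1a encodes the liver form of methionine adenosyltransferase, which makes SAM from methionine and ATP, and lies at chr14:41105012-41124428 on the plus strand of GRCm38 with 10 exons. It had 3771, 3900.4, 2481, 3362 and 2940.0 CPM in GDF15 libraries 1 to 5, 3197, 3286, 2758, 2654 and 2658 CPM in PairFed and 2314, 2429, 1764, 2566 and 2710.4 CPM in Vehicle. In words, 4 of 5 GDF15 libraries stood above every Vehicle library and GDF15 3 stood within the Vehicle range. Mat1a rose 1.4-fold against Vehicle (log2 fold change 0.48 ± 0.13 SE, adjusted p = 0.0486). That call sat close to the threshold. It was lost on leaving out any of GDF15 1, 2 or 4, PairFed 1 to 5 or Vehicle 1 to 4, with adjusted p-values of 0.0502 to 0.148. It was lost also in limma-voom (adjusted p = 0.0591), and 7 of 26 alternatives in all kept it.

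Ahcy encodes the hydrolase that splits S-adenosylhomocysteine, the inhibitory by-product of methylation, into homocysteine and adenosine. It lies at chr2:155059310-155074497 on the minus strand with 10 exons. The level was 1759.6, 1599.7, 1264, 1522 and 1395 CPM in GDF15 libraries, 1252, 1297, 1121, 1018 and 1211 CPM in PairFed and 799.6, 1068, 995, 1017 and 1072 CPM in Vehicle. Every GDF15 library was above every Vehicle library, 4 of 5 PairFed libraries were too, and the lowest GDF15 library overlapped the highest PairFed library. Ahcy rose 1.52-fold in GDF15 against Vehicle (log2 fold change 0.61 ± 0.10 SE, adjusted p = 0.00228), and the call held on leaving out each of the 15 libraries in turn. A near-identical processed copy, Gm4737, matches the Ahcy transcript over 2083 bases at 99.7% identity and took up to 5.16% of their summed counts. Counted together with it, Ahcy differed by 0.59 (adjusted p = 0.00335).

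Bhmt encodes the enzyme that remethylates homocysteine with betaine, a product of choline, and lies at chr13:93616891-93637758 on the minus strand with 8 exons. It had 2907, 3484, 3469.7, 3959 and 2739.9 CPM in GDF15, 3682, 2633, 3001, 2548 and 2708 CPM in PairFed and 3261, 3964, 2964, 2924 and 4274 CPM in Vehicle libraries. The 3 groups overlapped over most of their range, and the highest library of all was Vehicle 5. Bhmt did not pass the test against Vehicle (log2 fold change -0.07 ± 0.13 SE, adjusted p = 0.843), with a 95% interval of -0.34 to 0.20. Transcripts of Bhmt-ps1 and Gm5096 match Bhmt at 98.9% and 99.4% identity over 1224 and 1869 bases and were not analysed here, so the Bhmt counts can hold reads of these copies.

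The stretches upstream of Ahcy and Gnmt are printed as those of the genes that rose and have an entry in the RefSeq promoter table of GRCm38.p6. Each is on the minus strand and read 5′ to 3′, and it ends where the outermost RefSeq or GENCODE model of the gene begins. Ahcy has 250 bases at chr2:155074498-155074747, and Gnmt has 204 bases at chr17:46729212-46729415, because the table's start for Gnmt lies 46 bases inside the gene. Capitals mark CpG dinucleotides, 9 for Ahcy and 3 for Gnmt.
Ahcy: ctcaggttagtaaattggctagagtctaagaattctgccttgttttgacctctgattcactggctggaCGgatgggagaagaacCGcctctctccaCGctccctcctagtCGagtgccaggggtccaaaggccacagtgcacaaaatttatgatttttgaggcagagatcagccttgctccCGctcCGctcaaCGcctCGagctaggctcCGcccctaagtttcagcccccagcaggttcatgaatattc
Gnmt: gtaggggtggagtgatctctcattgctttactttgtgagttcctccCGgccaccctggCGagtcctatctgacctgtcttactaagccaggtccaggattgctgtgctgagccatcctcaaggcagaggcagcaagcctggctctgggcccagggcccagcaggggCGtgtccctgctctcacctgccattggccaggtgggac

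In the table's own 250 bases before each start there were 9 CpG for Ahcy, 6 for Gnmt, 5 for Bhmt, 21 for Cbs and 3 for Sardh, against a median of 6 over 32851 windows, and the 2 entries of Pemt had 1 and 2. Those stretches lie inside longer models of the same gene for Sardh and Pemt, and in part for Bhmt, Cbs and Gnmt. Mat1a, Cth and Nnmt are named only. In 300-base windows, reaching 50 bases past the table's start, 12 motifs were searched as exact letters on both strands. They were the GRE palindrome of the glucocorticoid receptor and its shorter form TGTTCT, the cAMP response element TGACGTCA and its shorter form TGACG, the C/EBP letters TTGCGCAA and TTGCNNAA, the C/EBP-ATF element TGATGNAA, the HNF4 direct repeat, HNF1, the E-box CACGTG, the antioxidant response element TGACNNNGC and the FOXA letters TGTTTAC. The short forms lie within the longer forms, and TTGCGCAA is a case of TTGCNNAA. Of the 7 windows of 6 genes, 1 Pemt window held TGTTCT, found in 19.0% of all windows, and the Cbs window held CACGTG 229 bases before the table's start, found in 7.15%. The other 10 motifs had no match in these windows, where TGACG occurs in 20.8%, TGACNNNGC in 12.4% and TTGCNNAA in 10.8% of all windows, and the rest in 3.97% or fewer.

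Gnmt, Pemt and Nnmt are methyltransferases that use SAM. Gnmt methylates glycine to sarcosine and is among the most abundant SAM users of liver, and it lies at chr17:46725664-46729211 on the minus strand with 6 exons. It had 1505, 1214, 1031, 1472 and 871 CPM in GDF15, 932, 854, 783, 769 and 839 CPM in PairFed and 603, 810.3, 688, 725 and 902 CPM in Vehicle libraries. GDF15 1 and GDF15 4 were the highest, 4 of 5 GDF15 libraries were above all Vehicle libraries, and GDF15 5 lay inside both other groups. Gnmt rose 1.63-fold against Vehicle (log2 fold change 0.71 ± 0.14 SE, adjusted p = 0.0106), and the call held on leaving out each library in turn. Its coefficient of variation was 22.5% in GDF15 and 7.74% in PairFed libraries.

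Pemt methylates phosphatidylethanolamine to phosphatidylcholine, a lipid exported in bile and lipoproteins, and lies at chr11:59970614-60046561 on the minus strand with 7 exons. It had 301, 269.9, 264, 251 and 244 CPM in GDF15, 227, 254, 239.7, 228 and 220.2 CPM in PairFed and 193, 226, 226, 242 and 221 CPM in Vehicle libraries. All GDF15 libraries were above all Vehicle libraries, by a narrow margin between GDF15 5 and Vehicle 4. The difference of 0.26 ± 0.07 SE on the log2 scale had an adjusted p of 0.0524 in edgeR and missed the threshold, though not without GDF15 5 or without Vehicle 4 (adjusted p = 0.0413 to 0.042). In all, 4 of 26 alternatives passed it, DESeq2 among them.

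Nnmt methylates nicotinamide, a form of vitamin B3, for excretion, and lies at chr9:48538002-48607655 on the minus strand with 3 exons. Per length it was the least abundant of the 9 genes, and in GDF15 and PairFed livers the most variable, with 101, 90.5, 39.9, 70.2 and 54.0 CPM in GDF15, 53.1, 91.5, 27.6, 37.2 and 42.7 CPM in PairFed and 29.7, 28.9, 31.5, 27.1 and 34.4 CPM in Vehicle libraries. The Vehicle libraries lay close together and below every GDF15 library, and PairFed 2 stood as high as the upper GDF15 libraries. The coefficient of variation was 35.5% in GDF15, 49.1% in PairFed and 9.12% in Vehicle libraries. Its estimate against Vehicle was the largest of the 9 genes, 2.34-fold, but missed the threshold (log2 fold change 1.23 ± 0.32 SE, adjusted p = 0.0582). The test was passed without GDF15 3, PairFed 2 or PairFed 3 (adjusted p = 0.0188 to 0.043), by DESeq2 (adjusted p = 0.00441) and by limma-voom (adjusted p = 0.0414).

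Sardh, the mitochondrial dehydrogenase that takes the methyl group off the sarcosine made by Gnmt, lies at chr2:27188393-27248332 on the minus strand with 21 exons. It had 1016, 1019, 872, 1013 and 833 CPM in GDF15, 926, 850.3, 758, 785 and 852 CPM in PairFed and 696, 861, 767, 792 and 833 CPM in Vehicle libraries. GDF15 5 was inside the Vehicle range and the other 4 GDF15 libraries were above it. The difference from Vehicle missed the threshold (log2 fold change 0.27 ± 0.08 SE, adjusted p = 0.0769). It passed in 2 of 26 alternatives, without GDF15 5 (adjusted p = 0.042) and by DESeq2 (adjusted p = 0.026). The antisense gene Sardhos overlaps it and was not analysed here, and the labels do not say whether counting used the strand.

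Cbs and Cth carry homocysteine sulfur to cysteine. Cbs, which joins homocysteine to serine, lies at chr17:31612623-31637233 on the minus strand with 17 exons. It had 521, 441, 486, 598 and 412 CPM in GDF15, 433, 400.2, 289, 325 and 368 CPM in PairFed and 399, 434, 451, 372 and 414 CPM in Vehicle libraries. No PairFed library was above the Vehicle range, and 3 of 5 were below its lowest value, while 3 of 5 GDF15 libraries were above it. The difference from Vehicle missed the threshold in GDF15 (log2 fold change 0.25 ± 0.11 SE, adjusted p = 0.252) and in PairFed (log2 fold change -0.19 ± 0.11 SE, adjusted p = 0.383).

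Cth, which cleaves the product of Cbs to release cysteine, lies at chr3:157894248-157925081 on the minus strand with 12 exons. It had 249.5, 238, 182, 239 and 203 CPM in GDF15, 200.4, 235, 167, 175 and 189 CPM in PairFed and 140.2, 182, 161, 159 and 178 CPM in Vehicle libraries. GDF15 3 and Vehicle 2 were nearly level, and the other 4 GDF15 libraries were above all Vehicle libraries. Cth rose 1.36-fold against Vehicle (log2 fold change 0.44 ± 0.10 SE, adjusted p = 0.0272). The call was lost without GDF15 1, GDF15 2, GDF15 4, Vehicle 1, Vehicle 3 or Vehicle 4, with adjusted p-values of 0.0571 to 0.0872.

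In pair-fed livers none of the 9 genes passed the test against Vehicle, in which edgeR called 0.285% of all tested genes. With edgeR 4 of 9 stood at an unadjusted p below 0.05, where 16.9% of all genes did. DESeq2 called 0 of 9 members and 2.76% of all genes, and limma-voom called 0 of 9 and 0.310%. Over all 12274 tested genes 6121 estimates were above 0, with a median of -0.00050. Among the members the estimate was above 0 for 7 of 9 genes and below 0 for Bhmt and Cbs, with a median of 0.16. It was 0.25 ± 0.10 SE for Ahcy (adjusted p = 0.195), 0.30 ± 0.13 for Mat1a (0.227) and 0.24 ± 0.10 for Cth (0.248). For Gnmt the estimate was 0.16 ± 0.14 SE (adjusted p = 0.567) with a 95% interval of -0.12 to 0.45, and for Nnmt it was 0.74 ± 0.32 SE (adjusted p = 0.261). No member separated PairFed from Vehicle libraries, where 3.92% of all tested genes did. Over all genes 18 were higher and 17 lower in PairFed, or 13 and 27 with upper-quartile scaling.

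Between GDF15 and PairFed, which is also the test of whether both differences from the shared Vehicle libraries are unlike, none of the 9 genes passed, and 0.782% of all tested genes did. All 9 estimates were above 0, with a median of 0.20. Over all 12274 tested genes 6160 were above 0, with a median of 0.00071. With edgeR 5 of 9 had an unadjusted p below 0.05, against 13.3% of all genes. DESeq2 called 3 of 9, namely Ahcy, Cbs and Gnmt, and 2.03% of all genes, and limma-voom called 0 of 9 and 0.595%. The largest estimates were those of Gnmt (log2 fold change 0.54 ± 0.14 SE, adjusted p = 0.0777), Nnmt (log2 fold change 0.49 ± 0.31 SE, adjusted p = 0.526), Cbs (log2 fold change 0.44 ± 0.11 SE, adjusted p = 0.0711) and Ahcy (log2 fold change 0.35 ± 0.10 SE, adjusted p = 0.108). The threshold was passed by Gnmt without GDF15 5 (adjusted p = 0.0222) and by Cbs without GDF15 5 or PairFed 1 (adjusted p = 0.0276 to 0.0427). For Mat1a, Bhmt, Cth and Nnmt the 95% intervals of -0.09 to 0.44, -0.09 to 0.46, -0.01 to 0.42 and -0.17 to 1.16 took in 0. GDF15 and PairFed libraries overlapped for all 9 genes, where 2.86% of all tested genes did not overlap.

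**Figure D2:**
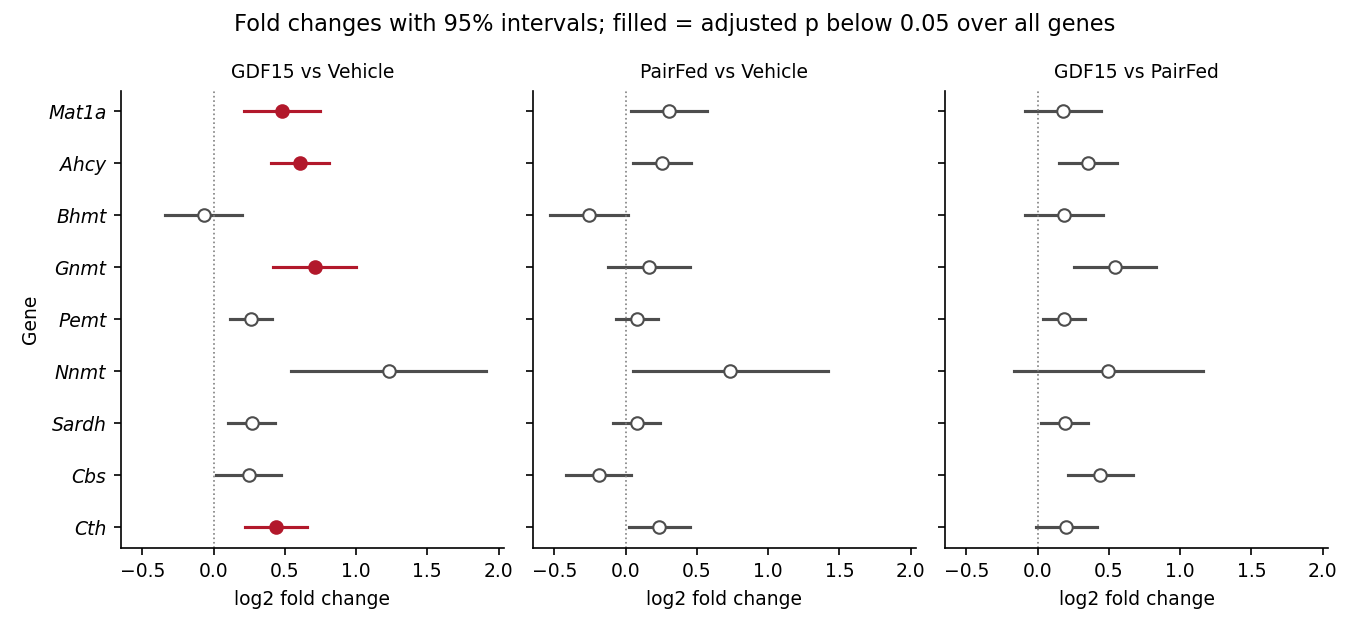
Log2 fold changes (x axis) of the 9 genes (y axis) in 3 panels, GDF15 vs Vehicle on the left, PairFed vs Vehicle in the middle, and GDF15 vs PairFed on the right, with 95% intervals as lines and filled points at an adjusted p below 0.05. Only Mat1a, Ahcy, Gnmt and Cth in GDF15 vs Vehicle are filled, and the intervals of Nnmt are the widest.

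Within the GDF15 group the same few libraries were high or low for most of the genes. GDF15 1 was the highest of the 5 for 5 of 9 genes, GDF15 5 the lowest for 5 and GDF15 3 the lowest for the other 4. Over all 15 libraries, GDF15 2 and GDF15 4 were among the 5 highest for 9 of 9 genes and GDF15 1 for 8, but GDF15 3 for 4 and GDF15 5 for 3. Among PairFed libraries, PairFed 2 was among the 5 highest for 5 genes and PairFed 1 for 4, and the other 3 for none. Vehicle 1 was among the 5 lowest for 8 of 9 genes, and Vehicle 5 for 1. The mean log2 CPM of the immediate-early genes was 4.97, 5.06, 3.80, 4.44 and 4.74 in GDF15 1 to 5. It was 4.80, 4.26, 3.95, 4.18 and 4.46 in PairFed 1 to 5, and 3.56, 4.17, 3.59, 3.85 and 4.26 in Vehicle 1 to 5. Within their groups GDF15 3, PairFed 3 and Vehicle 1 were lowest. GDF15 5, the lowest of its group for 5 genes, stood above GDF15 4 in this mean. PairFed 2, the highest of its group for 5 genes, stood below PairFed 1 and PairFed 5.

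**Figure D3:**
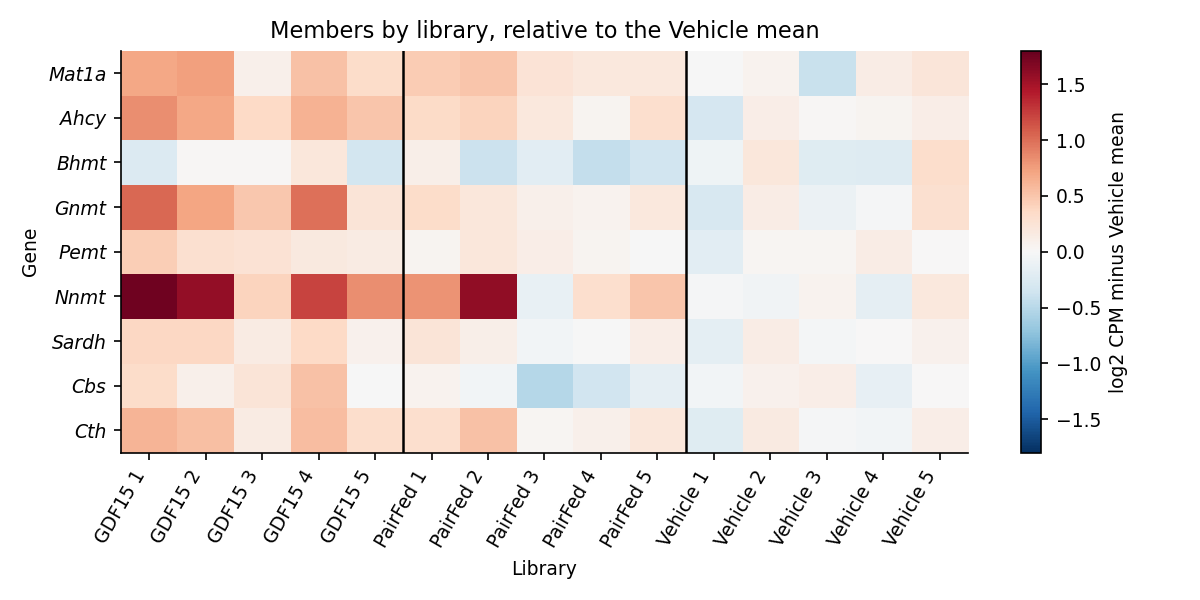
Log2 CPM minus the Vehicle mean (colour scale, red higher and blue lower) for the 9 genes (rows) in the 15 libraries (columns, GDF15, PairFed and Vehicle). The darkest cells are Nnmt in GDF15 1, GDF15 2 and PairFed 2, and Bhmt is the row with the most blue in PairFed.

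Per length, as CPM per kilobase of the principal transcript, the order of levels in GDF15 libraries was Bhmt 1330, Gnmt 1177, Mat1a 949, Ahcy 593, Pemt 265, Sardh 210, Cth 122, Cbs 79.0 and Nnmt 68.2. In PairFed libraries Mat1a at 839 came before Gnmt at 807, after Bhmt at 1171. In Vehicle libraries Bhmt stood at 1396, Gnmt at 720, Mat1a at 680 and Ahcy at 389, and Nnmt was last at 29.1. Levels of Gnmt and Mat1a overlapped in GDF15 and PairFed libraries within their SD. With the length of all annotated exons in place of that of the principal transcript, Bhmt ranked below Gnmt and Mat1a, and Sardh came before Pemt, so the order at the top rests on which transcripts are used.

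Across the 15 libraries the genes whose log2 CPM followed a member most closely, among 8721 genes whose log2 CPM averaged 3 or more, were measured by Pearson's r, as a description in which group, library and depth are shared. Ahcy had its highest r with Hpd (0.971) and Gnmt with Sardh (0.938), the next enzyme of the sarcosine branch. Cth was closest to Hal (0.958), which degrades histidine, and among members to Ahcy (0.937). Nnmt was closest to Asl (0.961), a urea cycle gene, to Got1 (0.958) and to the mitochondrial carrier Slc25a51 (0.955). Mat1a was closest to Trib1 (0.949), Pemt to Dgcr6 (0.935), Sardh to Amy1 (0.950) and Cbs to Kynu (0.918), of tryptophan breakdown. Bhmt stood apart from the other members, with at most 0.486 to any of them (Cbs) and 0.848 to Cyp8b1, of bile acid synthesis.

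Of 109 further genes listed for the surrounding reactions, 108 were in the table and 104 were tested. Against Vehicle, 6 rose and 1 fell in GDF15 livers, where 2.90% of all genes were called, with a median log2 fold change of 0.04, while in PairFed livers against Vehicle, and in GDF15 against PairFed, edgeR called none. At an unadjusted p below 0.05 were 34 of them in GDF15 vs Vehicle, 18 in PairFed vs Vehicle and 17 in GDF15 vs PairFed, beside 16.7%, 16.9% and 13.3% of all genes in those comparisons. DESeq2 called 4 in PairFed vs Vehicle and 3 in GDF15 vs PairFed, beside 2.76% and 2.03% of all genes, and limma-voom 0 in both.

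Got1, the cytosolic aspartate aminotransferase, which also acts on cysteine sulfinate, averaged 516 ± 218 CPM in GDF15, 273 ± 132 CPM in PairFed and 167 ± 32.8 CPM in Vehicle livers (SD, n = 5 each). It rose 3.09-fold against Vehicle (log2 fold change 1.63 ± 0.36 SE, adjusted p = 0.03), a call lost without GDF15 1, GDF15 2, GDF15 4, Vehicle 1, Vehicle 2, Vehicle 3 or Vehicle 4 (adjusted p = 0.0504 to 0.0863). Etnk2, a kinase that starts phosphatidylethanolamine synthesis and so the substrate of Pemt, averaged 428 ± 121 CPM in GDF15, 315 ± 54.9 CPM in PairFed and 197 ± 52.1 CPM in Vehicle livers and rose (log2 fold change 1.12 ± 0.22 SE, adjusted p = 0.018), a call lost without GDF15 2 or Vehicle 1 (adjusted p = 0.0551 to 0.0584). Every GDF15 library was above every Vehicle library for both genes, and for Etnk2 every PairFed library was too. Both genes are named here because they were called. Of all tested genes 3.99% did not overlap between GDF15 and Vehicle libraries, and 3.92% between PairFed and Vehicle libraries.

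Adk, the kinase that removes the adenosine released by Ahcy, averaged 677 ± 36.7 CPM in GDF15 and 579 ± 9.93 CPM in Vehicle livers and rose by a small amount (log2 fold change 0.23 ± 0.06 SE, adjusted p = 0.0427). That call was lost without GDF15 1, GDF15 2, GDF15 4, PairFed 4, PairFed 5, Vehicle 1, Vehicle 2, Vehicle 3, Vehicle 4 or Vehicle 5 (adjusted p = 0.0531 to 0.121). As3mt, a SAM-using methyltransferase of arsenic, rose (log2 fold change 0.39 ± 0.08 SE, adjusted p = 0.0107) and stayed called on leaving out each library in turn.

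Among folate genes, Aldh1l1, the cytosolic formyltetrahydrofolate dehydrogenase, rose (log2 fold change 0.43 ± 0.09 SE, adjusted p = 0.018) and so did Slc25a32, a mitochondrial folate and flavin carrier (log2 fold change 0.82 ± 0.17 SE, adjusted p = 0.0203). Those calls were lost without GDF15 2 or Vehicle 1 for Aldh1l1 (adjusted p = 0.059 to 0.0674) and without GDF15 1, Vehicle 1 or Vehicle 3 for Slc25a32 (adjusted p = 0.0514 to 0.0627). Mthfd2, a mitochondrial folate dehydrogenase of proliferating cells, had 1.79, 1.95, 2.44, 2.45 and 1.26 CPM in GDF15, 2.14, 1.19, 2.09, 1.92 and 2.12 CPM in PairFed and 4.26, 3.82, 3.95, 5.35 and 2.57 CPM in Vehicle libraries. Of all tested genes 3.99% did not overlap in GDF15 vs Vehicle and 3.92% in PairFed vs Vehicle. For Mthfd2 all GDF15 and all PairFed libraries were below all Vehicle libraries. It fell in GDF15 livers (log2 fold change -1.01 ± 0.23 SE, adjusted p = 0.0254), a call lost without GDF15 1, GDF15 2, GDF15 5, Vehicle 1, Vehicle 3 or Vehicle 4 (adjusted p = 0.0506 to 0.0695), and just missed the threshold in PairFed livers (log2 fold change -1.09 ± 0.23 SE, adjusted p = 0.0503).

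Other enzymes next to the members did not pass the test between GDF15 and Vehicle. Log2 fold changes for GDF15 against Vehicle were 0.14 for Mat2a, the methionine adenosyltransferase that predominates outside the liver, and -0.08 for methionine synthase, Mtr (adjusted p = 0.579 and 0.744). They were 0.21 for Bhmt2, a second homocysteine methyltransferase, 0.18 for Dmgdh, which acts on the product of Bhmt, and 0.14 for Gamt, of creatine synthesis (adjusted p = 0.0989, 0.238 and 0.522). For Cdo1 and Csad, which turn cysteine towards taurine, they were 0.33 and -0.21 (adjusted p = 0.113 and 0.735).

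**Figure D4:**
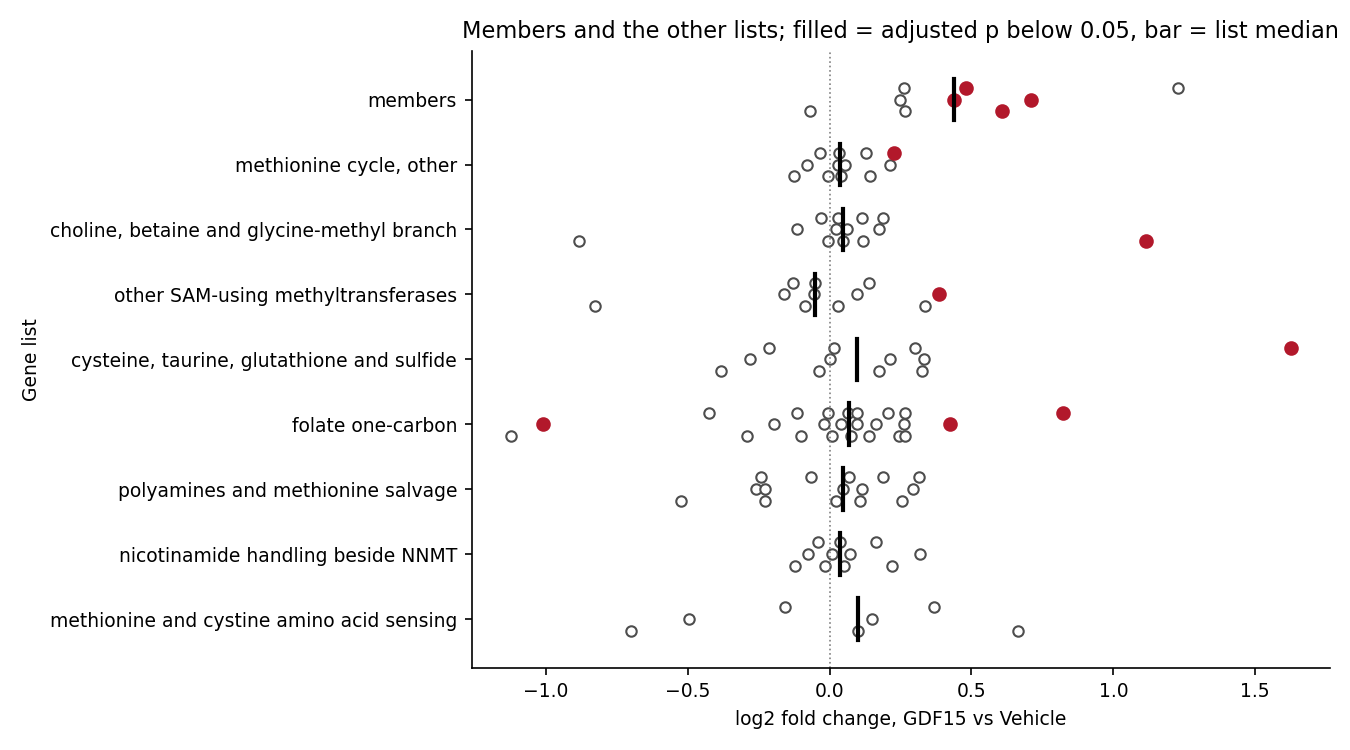
Log2 fold changes in GDF15 vs Vehicle (x axis) of the 9 members and of the other genes by list (y axis), 1 point per tested gene, filled at an adjusted p below 0.05, with a bar at each list's median. The members' median lies at 0.44, and those of the other lists lie close to 0 with single filled points for Adk, Etnk2, As3mt and Got1 and 3 among the folate genes.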

How the data were processed

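The values used are counts per gene symbol, deposited by the authors as whole numbers and not scaled to depth. The submitters' processing notes name Salmon, DESeq2 and build mm10, without versions or roles, so the counts may be rounded estimates. Per the labels' protocols, TRIzol lysis and RNeasy purification gave the RNA, and the library kit was directional. Columns were assigned to groups by name, and library numbers only name a column.

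Genes were filtered with filterByExpr (count 10, total 15) in edgeR 4.0.16 under R 4.3.3, which kept 12274 of 15302 genes and 99.9% of the counts. TMM scaling and a robust quasi-likelihood fit of all 15 libraries followed, with Benjamini-Hochberg adjustment over the tested genes of each contrast. The common biological coefficient of variation was 13.3%. CPM, with its means and SD, was computed here from the counts, and correlations use log2 CPM with a prior count of 2. Alternatives used DESeq2 1.42.0, limma 3.58.1 and sva 3.50.0, and the fit was tested on simulated data. Near-identical transcripts were sought with BLAST 2.17.0 at 95% identity over at least 100 bases. Positions, transcripts and promoters are from RefSeq and GENCODE annotation of GRCm38, and 15289 of the 15302 symbols matched RefSeq.

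The members, lists and tests were chosen with earlier results of these data known. Named genes were the 9 members, other listed genes called in any contrast, 8 neighbouring enzymes, 1 of which is not reported here, and the genes of highest r, of which not all are printed.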

Additional observations from a re-analysis of the deposited data

Results flagged for a closer look

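Of 75 groups of 5 libraries, 3 for each of 25 genes, 3 held a library far from the other 4 by Dixon's test at the 95% level, where chance gives about 1 in 20. Ahcy in Vehicle 1 was the lowest of its group at 799.6 CPM, with the other Vehicle libraries at 995 to 1072 CPM. The rise of Ahcy in GDF15 livers without Vehicle 1 was 0.54 on the log2 scale (edgeR, adjusted p = 0.00724). In PairFed 2, Mthfd2 was the lowest of the PairFed libraries at 1.192 CPM and Csad was the lowest at 73.96 CPM.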

How the results depend on the processing

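No paired analysis was possible because the sample labels do not pair libraries between groups, and the numbers in the table's column names are tied to no animal. Across 42 differences of single genes under 26 alternatives, 987 of 1091 values kept their direction and side of the threshold, 77 were no longer past it, 23 newly passed it and 4 changed sign. Those were all small: Bhmt in GDF15 vs Vehicle was 0.015 without Vehicle 5 (lowest over left-out libraries -0.15, without GDF15 4), and in GDF15 vs PairFed -0.10 with a term for the deeper libraries. With the immediate-early covariate, Sardh in PairFed vs Vehicle was -0.020 and Mat2a in GDF15 vs Vehicle -0.085. The cause was not tested. Depth and group are confounded in part, since no GDF15 library is among the deeper ones. With the depth term 4 members and 364 genes were called in GDF15 vs Vehicle, and 3 and 290 of these were also called without it. Ahcy and Gnmt in GDF15 vs Vehicle were called in 25 of 26 alternatives each, Cth in 18 and Mat1a in 7.

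For GDF15 vs Vehicle the members called, 4 of 9, became 7 with DESeq2, 0 with the immediate-early covariate and 2 with a surrogate variable. The other pathway genes, 7, became 4 with only both compared groups, 0 with that covariate and 2 with the surrogate variable, and all genes, 356, became 642 with DESeq2, 194 with only both groups, 9 with the covariate and 165 with the surrogate variable. For PairFed vs Vehicle, pathway genes went to 4 with DESeq2 and to 1 with its size factors, with upper-quartile scaling, with the surrogate variable and with Ahcy and Gm4737 summed (an alternative added after the counts were seen), each time Mthfd2. All genes, 35, became 339 with DESeq2, 66 with the surrogate variable and 0 with the depth term or the covariate. For GDF15 vs PairFed, DESeq2 called 3 members, 3 pathway genes and 249 genes in all (96 with edgeR), the depth term 9 and the covariate 60, and upper-quartile scaling and the filter at 10 CPM in 5 libraries each called 1 pathway gene, Fpgs. Mthfd2 did not pass that filter.

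Leaving out 1 library gave 2 to 6 members in GDF15 vs Vehicle, 0 to 0 in PairFed vs Vehicle and 0 to 2 in GDF15 vs PairFed. The member count was 2 without GDF15 1, 2 or 4 or Vehicle 1 or 3, 5 without GDF15 3 and 6 without GDF15 5, and in GDF15 vs PairFed it was 2 without GDF15 5 and 1 without PairFed 1. Pathway genes ran 1 to 11, 0 to 1 and 0 to 1 in the same order of comparisons, in GDF15 vs Vehicle with 1 without Vehicle 1 and 11 without GDF15 5. All genes ran 134 to 476 in GDF15 vs Vehicle, moving by over 1.5 times without GDF15 1 (172), GDF15 2 (134), Vehicle 1 (152) or Vehicle 3 (178), 0 to 135 in PairFed vs Vehicle, at 0 without PairFed 2 or 4 or Vehicle 1 or 3 and also moving without GDF15 2, 3 or 4, PairFed 1 or 5 or Vehicle 2 or 5, and 21 to 171 in GDF15 vs PairFed, moving without GDF15 1 or 2, any PairFed library or Vehicle 5. Without PairFed 1 the last 2 comparisons had their highest counts.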

Other observations

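Gm4737, the near-identical copy of Ahcy, was listed at 0 in GDF15 1 and GDF15 3 and at 403 to 845 counts in the other GDF15 libraries, against 384 to 766 counts in PairFed and 256 to 511 counts in Vehicle libraries. The Ahcy counts of GDF15 1 and GDF15 3 were 13771 and 12969.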
